A study of Danio rerio with 10 samples.

Results

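The genes described here encode Frizzled receptors and antagonists of Wnt signalling in somite progenitors of the zebrafish gastrula. They were taken by name: the Frizzled receptor genes *fzd7a*, *fzd7b*, *fzd8a*, *fzd8b* and *fzd10*, the secreted antagonist genes *sfrp1a*, *dkk1b* and *notum1a*, the intracellular regulator gene *dact2*, and *apcdd1l*, related to a membrane antagonist. Of these 10 symbols, 9 matched a RefSeq record among the 14720 in the count table, and no record matched *apcdd1l*, which is not analysed here. Of the 9 records, 8 had enough counts to be tested, among 6570 tested in all, and *notum1a* did not.

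Embryos of the wild-type AB strain were injected with caged fluorescein-dextran, a tracer that fluoresces once light removes its cage. In the spt_cMO group they also received a caged antisense morpholino against *spadetail*, the older name of the T-box gene *tbx16*, and in the control group the tracer alone, with no morpholino. Ultraviolet light was aimed through a 100 µm diaphragm at the ventral somite progenitors at 6 hours post-fertilization (hpf), and the fluorescent cells were collected by sorting late in gastrulation, at 9 hpf. Each group held 5 biological replicates, numbered 1 to 5. Since the controls carried no morpholino, loss of *tbx16* function and other effects of a morpholino cannot be told apart.

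The assay was CEL-seq, in which each transcript is read near its 3′ end. Libraries held between 2036973 and 9374914 counts in spt_cMO and between 3365785 and 7968446 in control. Levels are given as CPM, the reads of a record scaled to the usual fixed library total after TMM, edgeR's scaling between libraries. Transcripts of the targeted gene *tbx16* averaged 526 CPM ± 100.3 in spt_cMO and 386 CPM ± 45.1 in control (SD, n = 5 each), a log2 fold change of 0.45 that did not reach the threshold (adjusted p = 0.0897 by edgeR), and a morpholino need not lower its target's RNA. A count of 3 was worth between 0.318 and 1.47 CPM, which covers counting error only. The sorted cells carried presomitic mesoderm transcripts, with all 11 listed markers counted and a summed level of 3252 to 4820 CPM in spt_cMO and 6902 to 8999.8 CPM in control. Much of both sums was a single gene of the list, *msgn1*, which averaged 2029 CPM in spt_cMO and 5838 CPM in control. With *msgn1* left out, the summed levels of the groups overlapped. In that list 5 of 10 tested genes passed the test as lower in spt_cMO and 1 as higher. Over all tested records 0.974% passed as lower and 0.807% as higher. Summed markers of lateral and intermediate mesoderm ran from 436 to 1029 CPM in spt_cMO and from 705 to 1516 CPM in control, with 1 of 5 tested genes lower. The lists of notochord (27.1 to 57.7 against 27.2 to 47.8 CPM), neural ectoderm (446 to 616 against 411 to 605), epidermis (614 to 954 against 471 to 714), endoderm (233 to 291 against 224 to 302), yolk syncytial layer (1.3 to 11.3 against 3.41 to 9.26) and germ cells (30.2 to 81.9 against 48.9 to 90.5) overlapped between spt_cMO and control in summed level. In them 1 notochord and 1 neural gene passed, both higher in spt_cMO, and in the yolk syncytial list 1 of 6 records was at 0 in every library.

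Wnt proteins bind Frizzled receptors, membrane proteins with a cysteine-rich domain outside the cell. Together with the co-receptors Lrp5 and Lrp6 this stabilises β-catenin, while other Frizzled signals steer cell polarity and movement. Antagonists act at several steps: Sfrp proteins carry a Frizzled-like domain that binds Wnt in the extracellular space, Dkk proteins occupy the co-receptors, Notum removes the lipid that Wnt needs, and Dact proteins bind Dishevelled inside the cell. In the zebrafish gastrula Wnt signalling from the margin promotes posterior and ventrolateral mesoderm, and its antagonists are needed for the head.

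The comparison addressed which RNAs of these progenitors differ once the caged morpholino is released. Of the 8 tested genes, *sfrp1a*, *fzd10* and *dact2* fell and none rose. In the same test 0.974% of all tested records were called lower (64 of 6570), 0.807% higher (53) and 1.78% in either direction (117). When replicate numbers entered the fit as a block, these 3 of the 8 were again called, where 2.75% of all tested records were. The other 5, *fzd7a*, *fzd7b*, *fzd8a*, *fzd8b* and *dkk1b*, did not pass. Calls rest on p-values from edgeR's quasi-likelihood test, adjusted by Benjamini-Hochberg over all 6570 records, at 0.05. The median log2 fold change was -0.33 over the 8 genes and 0.0010 over all tested records. In 4 of the 8, the 3 that fell and *fzd7b*, all spt_cMO libraries lay under all control libraries, as they did in 1.63% of all tested records, while 3.06% had no overlap in either direction. These genes had been chosen with earlier results of these data known, so their shares are a description.

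**Figure D1:**
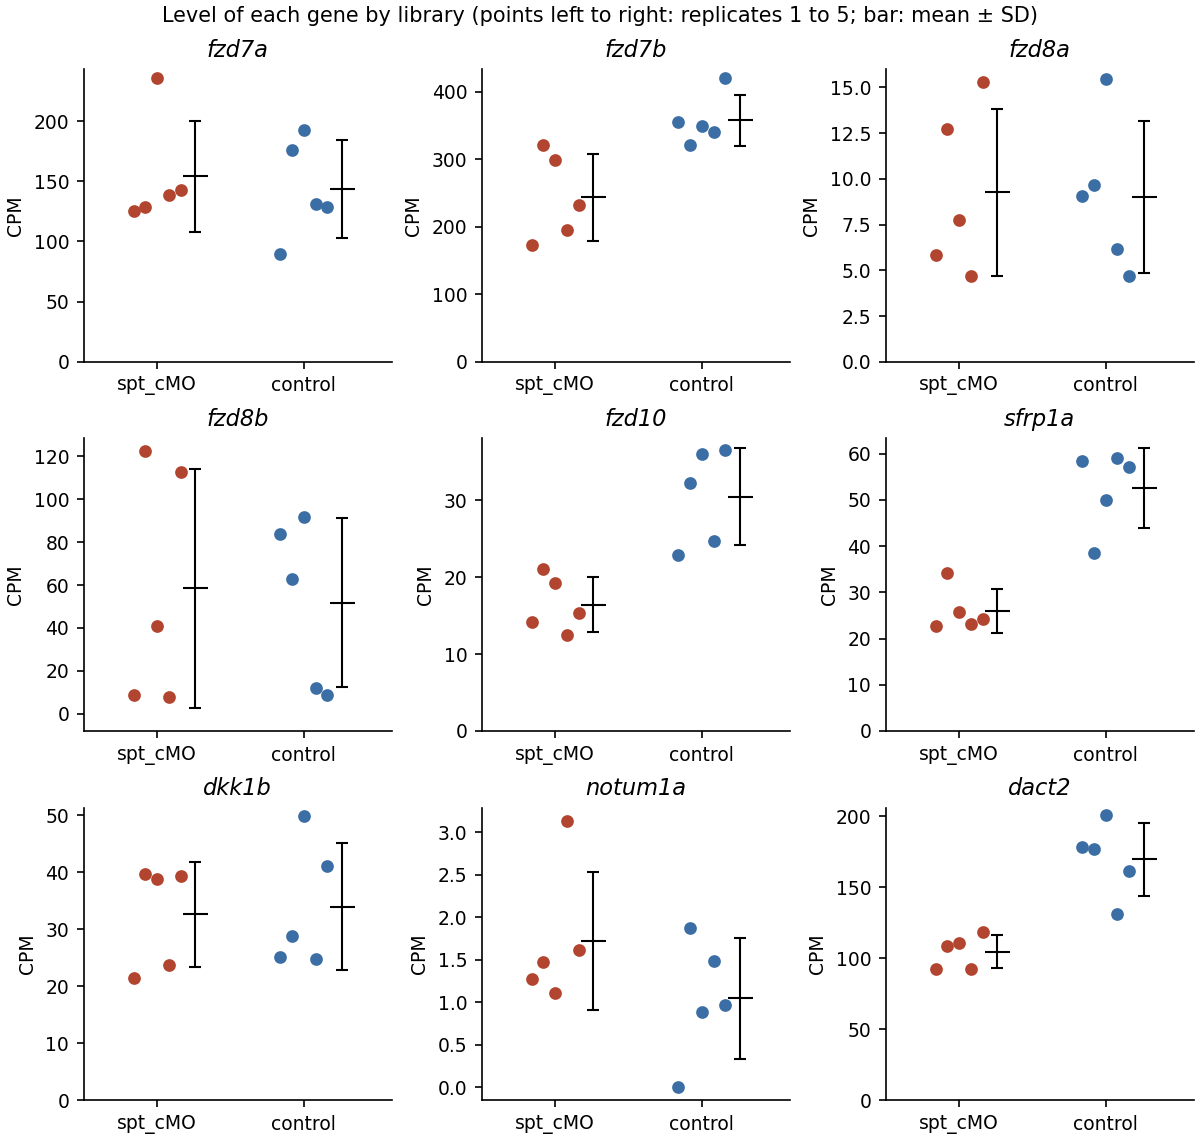
Level in CPM of the 9 counted genes, with spt_cMO on the left and control on the right of each panel. Points are the 5 libraries of a group, and bars are mean ± SD. In *fzd10*, *sfrp1a* and *dact2* every spt_cMO library lies under every control library, and in *fzd8b* both groups split into low and high libraries.

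Among the receptors *fzd10* showed the clearest difference. The *fzd10* transcript (NM_130917) was counted at 14.1, 21.0, 19.2, 12.5 and 15.3 CPM in spt_cMO replicates 1 to 5, and at 22.9, 32.3, 35.95, 24.7 and 36.5 CPM in control replicates 1 to 5. Every spt_cMO library lay under every control library, with 21.0 CPM in spt_cMO replicate 2 next to 22.9 CPM in control replicate 1. The mean fell to 16.4 CPM ± 3.56 in spt_cMO, against 30.5 CPM ± 6.34 in control (SD, n = 5 each). This is a log2 fold change of -0.93 (SE 0.17, 95% interval -1.30 to -0.57), or 52.4% of the control level (edgeR's quasi-likelihood test, adjusted p = 0.00499). In bulk samples fewer cells that use a gene and less RNA per cell cannot be told apart. The summed presomitic markers were also lower in every spt_cMO library than in any control library. Much of that sum was *msgn1*, at 2029 CPM ± 632 in spt_cMO and 5838 CPM ± 774 in control (SD, n = 5 each). With *msgn1* left out, the summed levels of the groups overlapped. Of the 10 tested markers 5 were called lower and 1, *fgf8a*, higher, where 0.974% of all tested records were called lower and 0.807% higher. The list was chosen with earlier results known, so this count is a description. Whether fewer such cells or less RNA per cell made *fzd10*, *sfrp1a* and *dact2* fall was not tested.

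Zebrafish has a pair of Frizzled 7 genes, receptors known in this species for the convergence and extension movements of the gastrula. They were the most counted Frizzled records in all 10 libraries, and together held 76.9% ± 7.84 of the counts of 12 Frizzled records in spt_cMO and 79.5% ± 5.31 in control (SD, n = 5 each). Tags come from near the 3′ end, so these counts do not grow with transcript length, but mapping can still differ between genes. The *fzd7b* transcript (NM_170763) was counted at 172, 320.5, 298, 195 and 232 CPM in spt_cMO replicates 1 to 5, against 356, 321.0, 349.7, 341 and 421 CPM in control replicates 1 to 5. The groups did not overlap, but spt_cMO replicate 2 came within 1 CPM of control replicate 2. Mean *fzd7b* was 244 CPM ± 64.3 in spt_cMO and 358 CPM ± 37.7 in control, a log2 fold change of -0.56 (SE 0.15, 95% interval -0.89 to -0.24). Over all records this missed the threshold, with an adjusted p of 0.085 by edgeR's quasi-likelihood test. It passed without spt_cMO replicate 2 (log2 fold change -0.68, adjusted p = 0.015), with no filter on low counts (adjusted p = 0.00827) and by DESeq2 (adjusted p = 0.0241), within a range of 0.00827 to 0.212 over 16 alternatives. In the authors' deposited table, which holds a likelihood ratio score, *fzd7b* had a log2 fold change of -0.59 and an adjusted p of 0.00175. That comparison called 3.58% of 6923 records, against 1.78% of 6570 in the test used here.

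The other copy, *fzd7a* (NM_131139), was counted at 126, 129, 236, 138 and 142 CPM in spt_cMO replicates 1 to 5, against 89.9, 176, 192, 131 and 128 CPM in control replicates 1 to 5. The groups overlapped, and spt_cMO replicate 3 was the highest of all 10 libraries. The *fzd7a* mean was 154 CPM ± 46.1 in spt_cMO and 144 CPM ± 40.9 in control, with a log2 fold change of 0.10 (SE 0.22, 95% interval -0.38 to 0.58) and an adjusted p of 0.959 (edgeR's quasi-likelihood test). Its sign turned negative without control replicate 1 (-0.027) or spt_cMO replicate 3 (-0.10).

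Whether the copies differed alike was asked of their ratio within each library. Of the counts of both copies, *fzd7a* took 42.2%, 28.6%, 44.1%, 41.5% and 38.1% in spt_cMO replicates 1 to 5, against 20.2%, 35.5%, 35.5%, 27.8% and 23.4% in control replicates 1 to 5. All spt_cMO libraries except replicate 2 lay above all control libraries. The log2 ratio of *fzd7a* over *fzd7b* averaged -0.66 ± 0.39 in spt_cMO and -1.36 ± 0.50 in control (SD, n = 5 each), a difference of 0.70. Over the 252 assignments of the libraries the exact permutation p was 0.0476 (2-sided), and the adjusted p over the 2 receptor pairs compared was 0.0952. Without spt_cMO replicate 2, the only one of its group within the control range, the difference was 0.86 (exact permutation, adjusted p = 0.0317). Leaving it out separates the groups fully, so the p before adjustment was the smallest that the remaining libraries allow. Without each of the other 9 libraries the difference did not pass (0.54 to 0.82, adjusted p 0.0635 to 0.19). How the authors treated reads that map to both copies is not given in the sources used here.

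**Figure D2:**
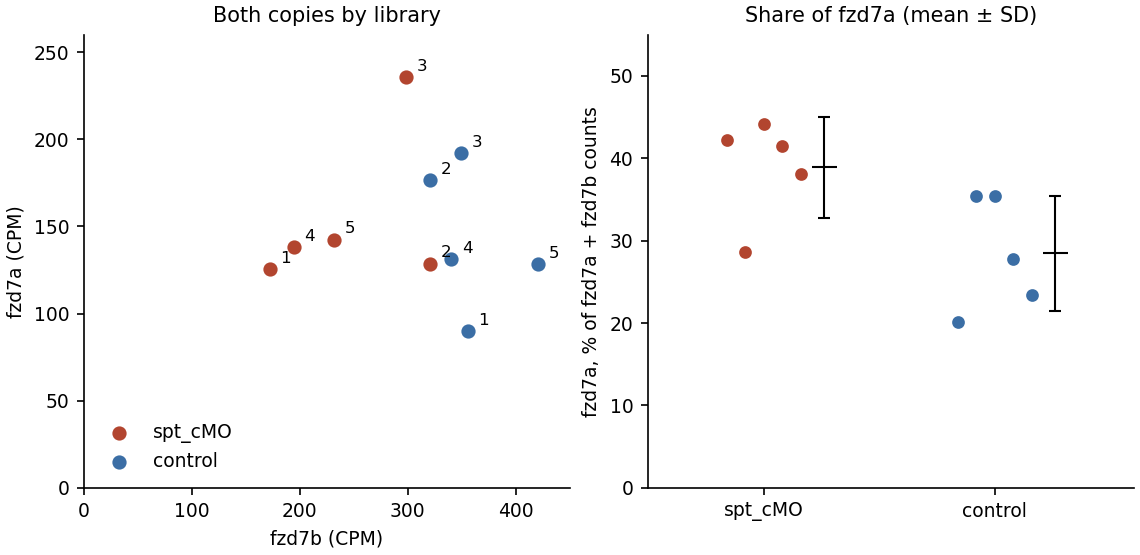
Left: *fzd7a* against *fzd7b* in CPM, with each point a library numbered by replicate. Right: *fzd7a* as a percentage of the counts of both copies, with mean ± SD. Replicates 1, 4 and 5 of spt_cMO sit at the lowest *fzd7b* levels, while *fzd7a* overlaps between the groups.

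The Frizzled 8 pair behaved in another way. Fzd8 is a receptor that in frog embryos is expressed in the organizer and the anterior ectoderm. The *fzd8b* transcript (NM_131553) was counted at 8.81, 122, 41.0, 7.83 and 113 CPM in spt_cMO replicates 1 to 5, against 83.9, 62.6, 91.5, 12.1 and 8.58 CPM in control replicates 1 to 5. The highest library held 15.6 times the level of the lowest, the widest range of the 8 tested genes, and both groups contained low and high libraries. Low were spt_cMO replicates 1 and 4 and control replicates 4 and 5, all at 12.1 CPM or less, and the other 6 lay at 41.0 CPM or more. Mean *fzd8b* was 58.5 CPM ± 55.6 in spt_cMO and 51.7 CPM ± 39.3 in control. Its log2 fold change of 0.12 had a 95% interval of -2.13 to 2.37, so a 4-fold difference in either direction lies within it (edgeR's quasi-likelihood test, adjusted p = 0.993).

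The lesser counted copy *fzd8a* (NM_130918) divided the libraries in the same order of low and high. It stood at 5.84, 12.7, 7.75, 4.70 and 15.3 CPM in spt_cMO replicates 1 to 5, against 9.07, 9.64, 15.5, 6.17 and 4.71 CPM in control replicates 1 to 5. The 4 libraries low in *fzd8b* were again the 4 lowest, at 6.17 CPM or less. Its log2 fold change was -0.02 (95% interval -0.80 to 0.76, adjusted p = 0.996 by edgeR's quasi-likelihood test). The log2 ratio of *fzd8a* over *fzd8b* averaged -1.93 ± 1.23 in spt_cMO and -2.01 ± 1.07 in control (exact permutation p = 0.857, 2-sided). Over the libraries the ratio ran from -3.22 to -0.56, and *fzd8b* varied more than *fzd8a*.

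To describe which other transcripts were high and low in the same libraries, the tested records were ranked by how near their standardised log2 CPM over the 10 libraries lay to that of *fzd8b*, a ranking made after the values were seen. Of 6569 other records, *ctslb*, a cathepsin gene of the zebrafish hatching gland, ranked 2, and *frzb*, which encodes a secreted Frizzled-related antagonist, ranked 6. The hatching enzyme genes *he1.1* and *he1.2* ranked 8 and 11, *fzd8a* ranked 12, and *gsc*, a homeobox gene of the prechordal plate, ranked 13. In the 4 libraries low in *fzd8b*, *he1.1*, *he1.2* and *gsc* stood at 1.70 CPM or less, near the counting limit. The *ctslb* transcript stood at 16.5, 128, 45.8, 20.1 and 111 CPM in spt_cMO replicates 1 to 5, against 86.2, 104, 116, 16.6 and 14.0 CPM in control replicates 1 to 5. Levels of *frzb* were 8.07, 41.1, 15.9, 7.31 and 41.8 CPM in spt_cMO replicates 1 to 5, against 19.7, 27.3, 37.4, 5.96 and 4.98 CPM in control replicates 1 to 5. In both genes the 4 libraries low in *fzd8b* were the 4 lowest.

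A list of 5 genes known from the prechordal plate or hatching gland was added after the values were seen, and 4 of them are among the 13 records nearest to *fzd8b*, so it is no independent evidence. All 5 had a record and were tested: *ctslb*, *he1.1*, *he1.2*, *gsc* and *klf17*. Their summed level ran from 40.01 to 188 CPM in spt_cMO and from 33.4 to 168 CPM in control, and none passed the test between the groups. The hatching gland factor *klf17* ranked 556 in nearness to *fzd8b* and did not follow it in every library, with 38.9 CPM in spt_cMO replicate 4. With the summed level of the 5 genes as a covariate, a fit also added after the values were seen, the calls among the 8 were *sfrp1a* (-1.03), *fzd10* (-0.94) and *dact2* (-0.72), as without it. That level ranged alike in both groups, so the covariate could move their difference little, and no conclusion is drawn from it. What the sorted fraction held in each library was not tested.

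**Figure D3:**
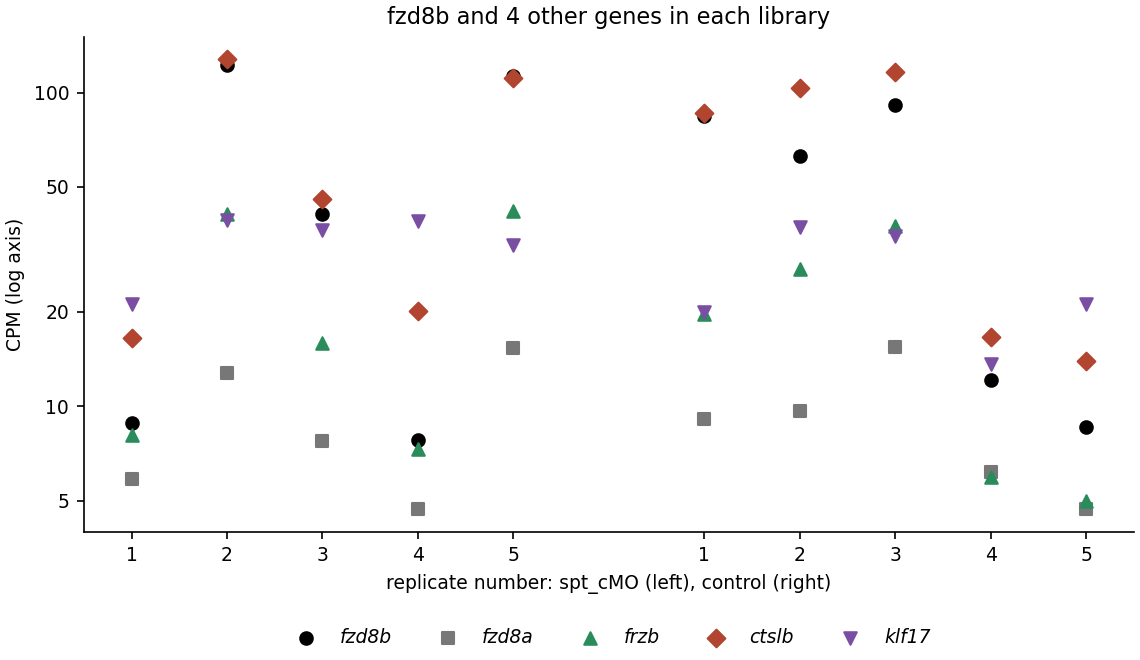
CPM on a log axis of *fzd8b*, *fzd8a*, *frzb*, *ctslb* and *klf17* in each library, with spt_cMO replicates 1 to 5 on the left and control replicates 1 to 5 on the right. Replicates 1 and 4 of spt_cMO and 4 and 5 of control are low in the first 4 of these genes, and *klf17* varies less.

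Of the secreted antagonists, *sfrp1a* showed the largest fall of the 8 tested genes. The *sfrp1a* transcript (NM_205585) was counted at 22.7, 34.3, 25.8, 23.2 and 24.1 CPM in spt_cMO replicates 1 to 5, against 58.5, 38.6, 49.9, 59.0 and 57.2 CPM in control replicates 1 to 5. No spt_cMO library reached the lowest control library, and spt_cMO replicate 2 stood above the other 4 of its group. The *sfrp1a* mean was 26.03 CPM ± 4.75 in spt_cMO and 52.6 CPM ± 8.66 in control, a log2 fold change of -1.03 (SE 0.15, 95% interval -1.35 to -0.72), or 48.8% of the control level (edgeR's quasi-likelihood test, adjusted p = 0.00034). By p it was the first of the 8 genes and ranked 30 among the 6570 records.

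The co-receptor antagonist gene *dkk1b*, whose product promotes head development in zebrafish, showed no such difference. The *dkk1b* transcript (NM_131003) stood at 21.4, 39.6, 38.7, 23.7 and 39.4 CPM in spt_cMO replicates 1 to 5, against 25.2, 28.8, 49.9, 24.7 and 41.1 CPM in control replicates 1 to 5. The groups overlapped between 24.7 and 39.6 CPM, and control replicates 3 and 5 lay above every spt_cMO library. Replicates 1 and 4 were the lowest in each group. The log2 fold change was -0.09 (SE 0.24), and its 95% interval of -0.61 to 0.42 does not reach the fall of *sfrp1a* (edgeR's quasi-likelihood test, adjusted p = 0.963). In nearness to *fzd8b* it ranked 347.

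The Wnt deacylase gene *notum1a* (NM_001161654) was near the limit of counting. It had 12, 3, 3, 12 and 4 counts in spt_cMO replicates 1 to 5, against 0, 15, 3, 7 and 7 counts in control replicates 1 to 5. In CPM this was 1.11 to 3.13 in spt_cMO and 0 to 1.88 in control, where 3 counts make up as much as 1.47 CPM. With no filter on low counts its log2 fold change was 0.58 (SE 0.50, edgeR's quasi-likelihood test, adjusted p = 0.782), and a difference was not detectable at this depth.

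Inside the cell, *dact2* fell. Dact2 binds Dishevelled, and in zebrafish it also promotes the degradation of Nodal receptors. The *dact2* transcript (NM_001077794) was counted at 92.7, 109, 110.3, 92.1 and 118 CPM in spt_cMO replicates 1 to 5, against 178, 177, 201, 131 and 161 CPM in control replicates 1 to 5. The groups did not overlap, and the lowest control library, replicate 4, lay above the highest spt_cMO library. Mean *dact2* was 104 CPM ± 11.6 in spt_cMO and 169.7 CPM ± 25.7 in control, a log2 fold change of -0.71 (SE 0.12, 95% interval -0.95 to -0.46), or 61.3% of the control level (edgeR's quasi-likelihood test, adjusted p = 0.00185).

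The calls of *sfrp1a*, *fzd10* and *dact2* held when any single library was left out. Leaving out each of the 10 in turn gave adjusted p of at most 0.00256, 0.0298 and 0.00935 for the 3 genes. In the authors' deposited table these genes also had an adjusted p under 0.05, with log2 fold changes of -1.02, -0.88 and -0.69, where 3.58% of 6923 records were called and 1.75% were called lower. Within spt_cMO, replicate 2 had the highest *fzd10*, *sfrp1a* and *fzd7b* and was the shallowest library, at 2036973 counts. It also held the most *msgn1*, which encodes a presomitic mesoderm factor, at 2820 CPM against 1382 to 2537 CPM in the other 4 spt_cMO libraries. Replicate 5 of spt_cMO instead had the highest *dact2* of its group, at 118 CPM against 109 CPM in replicate 2. It also had the highest summed presomitic markers, at 4820 CPM against 4572 CPM in replicate 2. With *msgn1* left out of the sum, replicate 5 was still the highest, but replicate 2 was among the lowest of its group.

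**Figure D4:**
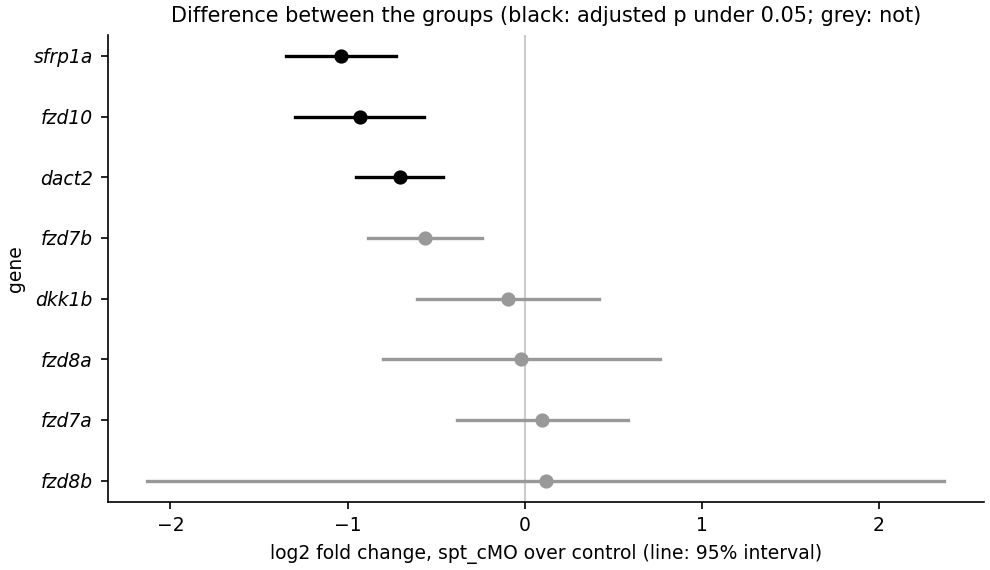
Log2 fold change of spt_cMO over control for the 8 tested genes, with 95% intervals from edgeR's quasi-likelihood fit. Black marks the 3 genes past an adjusted p of 0.05, and the interval of *fzd8b* is the widest.

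The rest of the Wnt pathway was read from 7 lists with 119 genes, of which 85 had a record, 76 had a count in some library and 39 were tested. Of the 39, 2 rose, 2 fell and 35 did not pass, with a median log2 fold change of 0.00019. Over all tested records 0.807% were called higher, 0.974% lower and 1.78% in either direction, and the lists were chosen with earlier results known, so the count is a description. Named here are those that passed and the 2 of highest mean CPM in each list.

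Other Frizzled receptors gave 3 tested genes of 7 with a record, and none passed. *fzd2* averaged 24.9 CPM ± 4.67 in spt_cMO and 25.2 CPM ± 6.14 in control (log2 fold change 0.00019, 95% interval -0.34 to 0.34), and *fzd6* averaged 8.44 CPM ± 2.98 in spt_cMO and 8.94 CPM ± 2.18 in control. The interval of *fzd2* does not reach the fall of *fzd10*. Summed over 12 Frizzled records, levels were 369, 645, 635, 403 and 556 CPM in spt_cMO replicates 1 to 5, against 601, 642, 717, 561 and 637 CPM in control replicates 1 to 5. The sums overlapped, with replicates 1 and 4 of spt_cMO lowest. Of 12 co-receptor genes listed, 5 had a record and 2 were tested, and *lrp5* and *lrp6* were not among the 2 tested. These were *ptk7a*, a planar polarity kinase-like receptor (242 CPM ± 42.1 in spt_cMO and 223 CPM ± 54.5 in control), and the Wnt receptor gene *ryk* (76.4 CPM ± 8.77 in spt_cMO and 82.4 CPM ± 12.5 in control). Neither passed.

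Other antagonists included 1 gene that moved. *tmem88a*, which encodes a membrane protein that binds Dishevelled and dampens Wnt signalling, stood at 34.7, 25.9, 38.0, 35.5 and 26.9 CPM in spt_cMO replicates 1 to 5, against 10.3, 17.4, 21.1, 14.9 and 18.7 CPM in control replicates 1 to 5. All spt_cMO libraries lay above all control libraries. *tmem88a* rose, by 0.98 on the log2 scale (SE 0.17, edgeR's quasi-likelihood test, adjusted p = 0.00265), opposite in sign to *sfrp1a* and *dact2*. The other 5 tested genes of its list did not pass, among them *axin1*, a scaffold of β-catenin degradation (136 CPM ± 7.09 in spt_cMO and 135 CPM ± 10.8 in control), and *dact1*, a relative of *dact2* (84.7 CPM ± 17.8 in spt_cMO and 103 CPM ± 16.2 in control, log2 fold change -0.29, 95% interval -0.58 to 0.01). Secreted antagonists outside the 10 symbols gave 3 tested genes, *dkk3b*, *frzb* and *sfrp5*, and none passed. Their most counted members were *frzb* at 22.8 CPM ± 17.3 in spt_cMO and 19.1 CPM ± 13.9 in control and *sfrp5* at 7.23 CPM ± 4.11 in spt_cMO and 7.04 CPM ± 2.15 in control.

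Only 3 of 25 ligand and ligand export genes with a record were counted enough to be tested. The Wnt carrier gene *wls* averaged 564 CPM ± 144 in spt_cMO and 391 CPM ± 47.8 in control, a log2 fold change of 0.53 (SE 0.14) with an adjusted p of 0.085 by edgeR's quasi-likelihood test. *wnt5b*, a ligand of polarity signalling, averaged 69.2 CPM ± 20.2 in spt_cMO and 59.8 CPM ± 18.9 in control. None of 11 tested signal transduction genes passed, and the β-catenin genes *ctnnb1* (989 CPM ± 138 in spt_cMO and 917 CPM ± 79.0 in control) and *ctnnb2* (397 CPM ± 50.6 in spt_cMO and 412 CPM ± 42.7 in control) had log2 fold changes of 0.11 and -0.05.

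Among 11 tested nuclear factors and Wnt targets 1 rose and 2 fell. *tcf7l1a*, a Tcf repressor of Wnt targets, stood at 16.8, 23.5, 17.7, 14.1 and 15.7 CPM in spt_cMO replicates 1 to 5, against 25.95, 29.9, 41.3, 29.8 and 32.4 CPM in control replicates 1 to 5, with no overlap. It fell with a log2 fold change of -0.88 (SE 0.16, edgeR's quasi-likelihood test, adjusted p = 0.00331), and *msgn1*, given in the same fit as -1.53 (SE 0.19), fell as well. *tbxta*, the zebrafish brachyury homologue, rose by 0.38 on the log2 scale (SE 0.09, adjusted p = 0.044). Leaving out spt_cMO replicate 2 kept that call, and leaving out any of the other 9 libraries ended it, with the highest adjusted p, 0.148, when spt_cMO replicate 1 was left out. It was also lost with no filter on low counts (0.0852) and with the added covariate (0.0507). The call was kept with the replicate block (0.0222), DESeq2 size factors (0.0435), the DESeq2 Wald test (0.00323) and another filter on CPM (0.0436). All spt_cMO libraries lay above all control libraries in *tbxta*. The caudal gene *cdx4* averaged 3367 CPM ± 225 in spt_cMO and 4036 CPM ± 282 in control and did not pass (log2 fold change -0.26, adjusted p = 0.21).

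**Figure D5:**
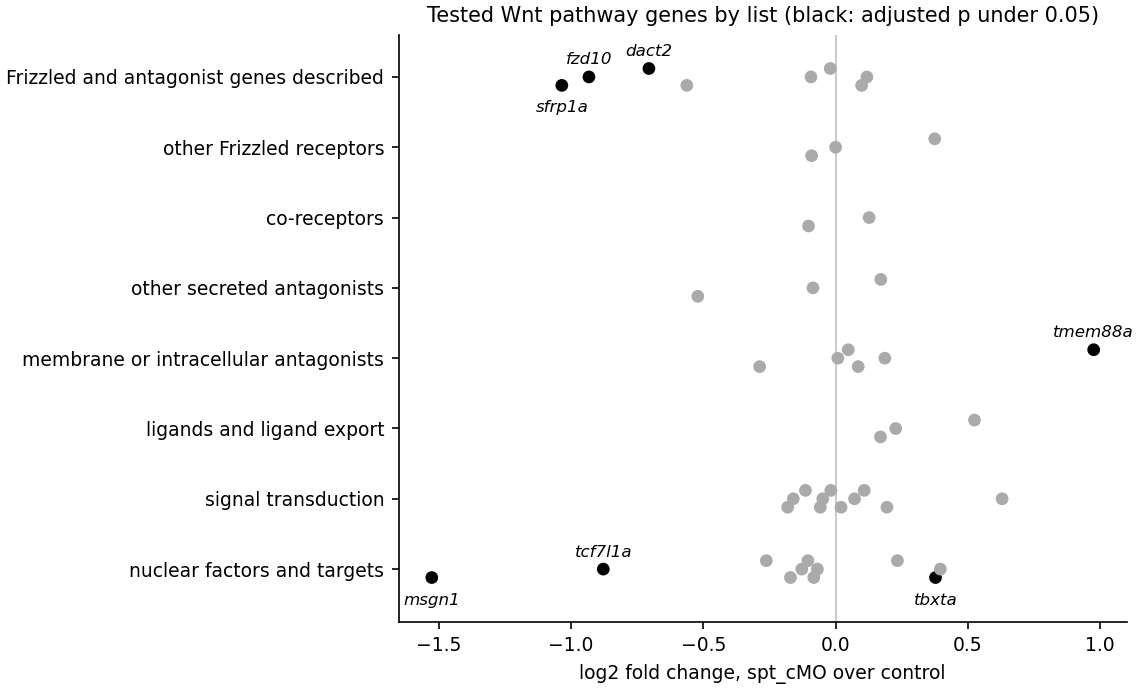
Log2 fold change of spt_cMO over control for the 8 tested Frizzled and antagonist genes and for 39 tested genes of 7 other Wnt pathway lists, 1 point a gene. Black points passed an adjusted p of 0.05, which 3 of the 8, 4 of the 39 and 1.78% of all tested records did.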

How the data were processed

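The authors deposited raw read counts per RefSeq record for 10 libraries, made in Galaxy by custom scripts with alignment to Zv8, per the labels' series text; the aligner, counter and strand setting are not given in the sources used here. The authors also deposited a comparison holding a p-value, an adjusted p-value, a likelihood ratio score and log2 values (fold change and mean CPM) for each record, made with edgeR per the submitters' processing notes. No molecular identifiers are mentioned, so counts are reads.

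Gene symbols were looked up in RefSeq's GRCz12tu table, used for names only (13986 of 14720 records matched); records without a symbol made up 1.4% to 1.62% of the counts and were tested too. Records were kept by filterByExpr (minimum count 10, total 15, proportion 0.7), scaled by TMM and tested with glmQLFit (robust) and glmQLFTest in edgeR 4.0.16 under R 4.3.3, with group only, 2-sided. SE is the fold change over the root of F, and 95% intervals use its degrees of freedom. Log ratios of receptor pairs (prior count 2) were compared by exact permutation in scipy 1.17.1. The fit was tested on simulated data, where it called 40% of changes of 1.5-fold, 84% of 2-fold, 96% of 3-fold and 92% of 4-fold. A gene that did not pass may thus still differ, and not only by a small fold, since some changes of each size were missed. These rates are averages over simulated records, and single genes can be less certain. For *fzd8b* the 95% interval ran from -2.13 to 2.37 on the log2 scale.

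The genes and lists were chosen with earlier results of these data known. All 10 symbols are named; of other Wnt genes, those that passed and the 2 most counted in each list. *ctslb*, *he1.1*, *he1.2*, *gsc*, *klf17* and *dkk3b* were picked for mention with their values known, and *tbx16* as the target. The labels number replicates 1 to 5 in both groups without saying what a number shares. After subtracting group means, libraries with the same number correlated at 0.135, 0.251, 0.119, 0.203 and 0.147 over 6570 records, all above 0.1. On that ground the numbers were treated as paired in an alternative fit with the replicate number as a block. Libraries with different numbers were not compared in this way, so these values do not show that a number marks a pair. Other alternatives were DESeq2 1.42.0 size factors, its Wald test, other filters, each library left out, and 1 covariate added after the data were seen.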

Additional observations from a re-analysis of the deposited data

Results flagged for a closer look

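Over 22 sets of 5 libraries (9 genes and 2 receptor ratios in each group), 3 held a library far from the other 4, with a gap to its neighbour of more than 0.71 of the set's range. Chance gives about 1 such set in 20 if values are independent and follow a normal distribution. CPM need not follow one, above all at low counts, and the ratios reuse genes of other sets. That rate may therefore not hold here. All 3 lay in spt_cMO and were the highest of their set. *fzd7a* stood at 236 CPM in spt_cMO replicate 3, with 142 CPM next (gap 0.848 of the range), and without that library the log2 fold change was -0.10. *sfrp1a* stood at 34.3 CPM in spt_cMO replicate 2, with 25.8 CPM next (0.73), which is still under every control library, and without it the log2 fold change was -1.14 (edgeR's quasi-likelihood test, adjusted p = 0.000208, against 5.22e-08 to 0.00256 over 16 alternatives). *notum1a* stood at 3.13 CPM in spt_cMO replicate 4, with 1.61 CPM next (0.752), which rests on 12 counts.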

How the results depend on the processing

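With the replicate block 181 records were called (88 higher, 93 lower), against 117 (53 higher, 64 lower) without it. The block changed no call among the 8 genes, and *fzd7b* had an adjusted p of 0.0527 with it (edgeR's quasi-likelihood test). Leaving out each library gave 84 to 126 called records and 3 or 4 called genes of the 8. The 3 calls, *sfrp1a*, *fzd10* and *dact2*, kept their direction and call in all 16 alternatives, with log2 fold changes of -1.14 to -0.98, -1.02 to -0.85 and -0.78 to -0.64. *fzd7b* was lower in all 16 and called in 3. Genes near 0 changed sign without being called: *fzd8a* was 0.031 with the replicate block, 0.015 by DESeq2 and -0.28 to 0.23 without single libraries, and *fzd8b* was -0.082 with the block, -0.15 with the added covariate and -0.36 to 0.44 without single libraries. Without single libraries *fzd7a* ran from -0.10 to 0.22 and *dkk1b* from -0.18 to 0.073. The ratio of *fzd7a* over *fzd7b* differed by 0.54 to 0.86 and that of *fzd8a* over *fzd8b* by -0.26 to 0.41. The causes were not tested. As 5 matched pairs for the replicate block, the first ratio was higher in 4 of 5 (0.70, exact sign flips, p = 0.125) and the second in 3 of 5 (0.08, p = 0.875), where 0.0625 is the smallest p that 5 pairs allow. Depth limits *notum1a* most, with at most 15 counts in a library.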
